A study of Mus musculus with 4 samples.

Results

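The G1/S and DNA replication genes are 41 genes chosen by symbol for what they do: E2F factors and G1/S cyclins, replication licensing, polymerases and nucleotide supply. Rows for all 41 of 41 were found among the 27179 rows of the deposited gene count table, and all 41 had enough reads to be tested. RNA was sequenced from the mAEC line of murine aortic endothelial cells, a cultured model of the lining of large arteries. The control group was kept in normal medium, and the conditioned medium group received the supernatant of macrophages positive for TNFα and CD68. Each group held 2 libraries, described by the series as biological replicates. Nothing states whether the replicates came from separate cultures, so the p-values measure the spread between these libraries, which may be technical.

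Cells commit to division in G1, when D-type cyclins with CDK4 or CDK6, and then E-type cyclins with CDK2, phosphorylate the retinoblastoma protein and release E2F transcription factors. E2F factors then drive genes that load the MCM helicase onto replication origins, fire those origins and supply polymerases and deoxynucleotides for S phase. In the healthy arterial lining most endothelial cells are quiescent, whereas cultured lines cycle.

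Most of the program did not pass the test, and 12 of the 13 genes that did were lower in conditioned medium. Of the 41 genes 12 fell, 1 rose and 28 were not called at an adjusted p of 0.05. The falls were small, from 1.10-fold to 1.33-fold. Among them were Ccnd1 and Ccnd2, cyclins of early G1, Ccne2, a cyclin of the G1/S step, Mcm6, a helicase subunit, Pcna, the sliding clamp, the catalytic polymerase genes Pola1 and Pole, and Rrm1, the large subunit of ribonucleotide reductase. The gene that rose was Cdt1, a licensing factor, by 1.14-fold. As background, 16.8% of the 13897 genes tested were called, 8.23% lower and 8.53% higher. The median log2 fold change was -0.10 over the 41 genes, with 31 below 0, against 0.00037 over all genes tested. In 29 of the 41 genes both libraries of a group lay outside the range of the other group, 25 of them lower, as did 57.2% of all genes tested, 28.8% lower. In bulk RNA a smaller share of cells in S phase and less of these RNAs per cell cannot be told apart. Without conditioned medium replicate 1 the falls numbered 4, where 2.44% of all genes were called lower, and without replicate 2 they numbered 3, where 1.74% were. DESeq2 called 6 lower, where it called 3.62% of the genes it gave an adjusted p lower. Cdt1 was called in none of these 3 settings, while Ccnd2, Pola1 and Rrm1 were called in each of the 15 alternative settings run.

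Library totals ranged from 13815695 to 18005840 counts, and the 41 genes held between 32 and 16059 counts per library. Levels are given as CPM, counts scaled to a fixed library size, and 3 counts equalled 0.167 to 0.217 CPM. The median control level was 48.6 CPM over the 41 genes and 23.6 CPM over all genes tested. The part of this difference in the shares called was not tested. Of 10 endothelial markers 9 had enough reads to be tested, with Pecam1 and Cdh5, both junctional proteins, at 1893 CPM or more in every library. Vwf stood at only 2.30 and 3.49 CPM in control and 2.38 and 3.38 CPM in conditioned medium, and Cldn5, a tight junction gene, held 1 count in all. Of the 9 tested 3 were called, where 16.8% of all genes tested were. Kdr, a VEGF receptor (-0.16), and Emcn, a sialomucin (-0.13), fell, and Eng, a TGFβ co-receptor, rose (0.32), on the log2 scale. Of 10 macrophage markers, Adgre1 and Tyrobp were at 0 in every library and 6 of the 10 held 3 counts or fewer in each. Cd68 stood at 219.9 and 248.1 CPM in control and 240.8 and 248.9 CPM in conditioned medium. Without Cd68 the macrophage list summed to 10.7 to 12.0 CPM in control and 11.4 to 12.0 CPM in conditioned medium. Of 10 smooth muscle and fibroblast markers 4 had enough reads to be tested and 1 was called, beside the same 16.8% of all genes. It was Pdgfra, a PDGF receptor, which rose by 0.28 on the log2 scale. That list summed to 36.2 and 38.8 CPM in control and 43.6 and 44.9 CPM in conditioned medium, with Col1a2 at 0 in every library. The part of these marker levels in the results was not tested.

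The replication genes are known targets of E2F, so promoters were searched for 4 spellings of the E2F consensus, TTTCCCGC, TTTCGCGC, TTTGCCGC and TTTGGCGC, on both strands, in RefSeq windows from 250 bases before to 50 after each gene start (GRCm38.p6, the same build as mm10). Windows were found for 33 of the 41 genes, and 15 of the 33 held a match. Among 10142 tested genes with a window 4.71% held a match, and 2.26% of all 32851 windows did. A match was present in 3 of 8 genes that fell, in Cdt1, and in 11 of 24 genes that were not called. Sequences of genes with different outcomes follow, each on its own strand from 5′ to 3′ with matches in capitals: Mcm6 fell and held 3 matches, of which a pair overlap; Pcna fell with none in its window; Cdk2 was not called and held 1; the 30-base stretches of Pola1 (fell), Mcm5 (not called, with overlapping matches) and Cdt1 (rose) surround their matches. They lie at chr1:128359706-128359955 (minus strand), chr2:132253181-132253430 (minus), chr10:128705052-128705301 (minus), chrX:93632275-93632304 (minus), chr8:75109345-75109374 (plus) and chr8:122568035-122568064 (plus), in the same order.
Mcm6: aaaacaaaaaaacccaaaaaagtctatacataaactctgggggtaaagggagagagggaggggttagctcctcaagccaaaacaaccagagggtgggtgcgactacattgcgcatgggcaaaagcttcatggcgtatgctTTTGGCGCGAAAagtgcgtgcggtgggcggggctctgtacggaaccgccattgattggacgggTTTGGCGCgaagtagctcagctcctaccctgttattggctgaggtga
Pcna: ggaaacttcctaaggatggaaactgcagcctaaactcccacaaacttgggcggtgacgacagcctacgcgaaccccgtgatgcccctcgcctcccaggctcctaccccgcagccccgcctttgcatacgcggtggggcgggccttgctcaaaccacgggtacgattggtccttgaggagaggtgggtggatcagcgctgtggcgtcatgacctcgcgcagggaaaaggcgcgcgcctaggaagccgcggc
Cdk2: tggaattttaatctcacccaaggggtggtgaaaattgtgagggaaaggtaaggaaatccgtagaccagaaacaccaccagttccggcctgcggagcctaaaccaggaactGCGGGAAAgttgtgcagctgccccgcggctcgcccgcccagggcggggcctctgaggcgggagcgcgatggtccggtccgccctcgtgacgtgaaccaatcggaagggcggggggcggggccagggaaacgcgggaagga
Pola1: gtcatcacaggGCGCCAAAtgcactcccgc
Mcm5: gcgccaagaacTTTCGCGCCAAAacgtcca
Cdt1: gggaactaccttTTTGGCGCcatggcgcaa

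**Figure D1:**
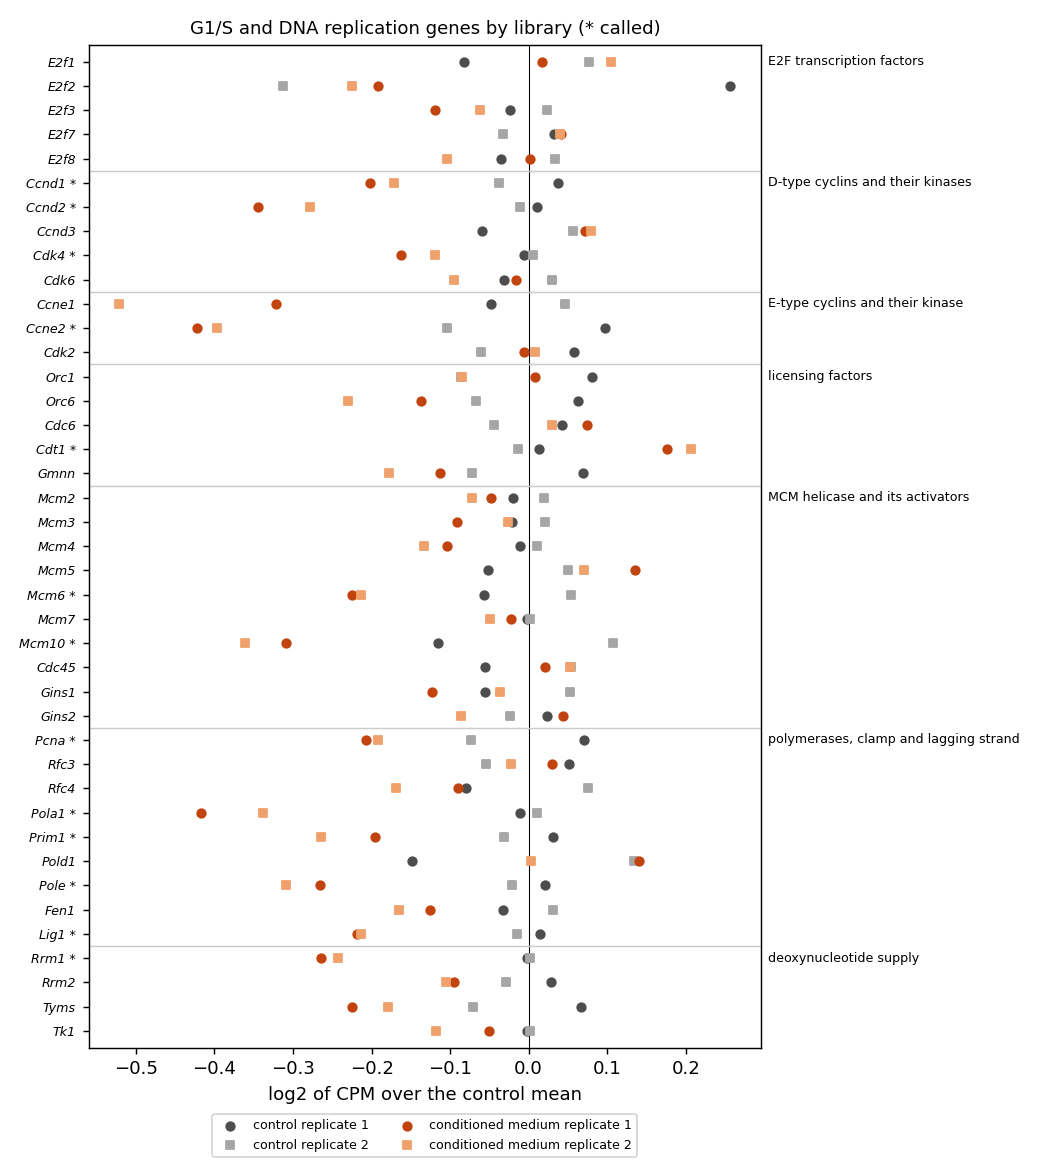
Each row is 1 of the 41 genes and each point 1 library, plotted as the log2 of its CPM over the mean of the control libraries; an asterisk marks the 13 genes called. In the 12 genes that fell, both conditioned medium points lie left of both control points, and in Cdt1 both lie to the right.

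Fold changes moved with the base composition of the transcripts across the whole table. Over 9802 genes whose mean reached 100 counts, the log2 fold change and the GC content of the principal transcript had a Spearman correlation of 0.41, across genes, which are not independent replicates. Median log2 fold changes ran from -0.12 in the lowest of 10 bins of GC to 0.13 in the highest. The log2 ratio of the control libraries to each other, replicate 2 over replicate 1, also moved with GC, at 0.27, and that of the conditioned medium libraries at 0.02. Over the 41 genes the correlation was 0.44. Median GC was 47.9% in the 12 genes that fell and 49.8% in the 28 not called, against 50.2% over all tested genes with a value. An offset that levels this GC trend in each library was therefore fitted as an alternative, chosen after the data were seen. With it 13 of the 41 genes were called lower and 0 higher, where 16.1% of 12146 genes were called and 7.39% were lower. Of the 12 falls 11 were called both ways; Ccne2 and Cdt1 lost their calls, and Ccne1 and Fen1 became called.

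**Figure D2:**
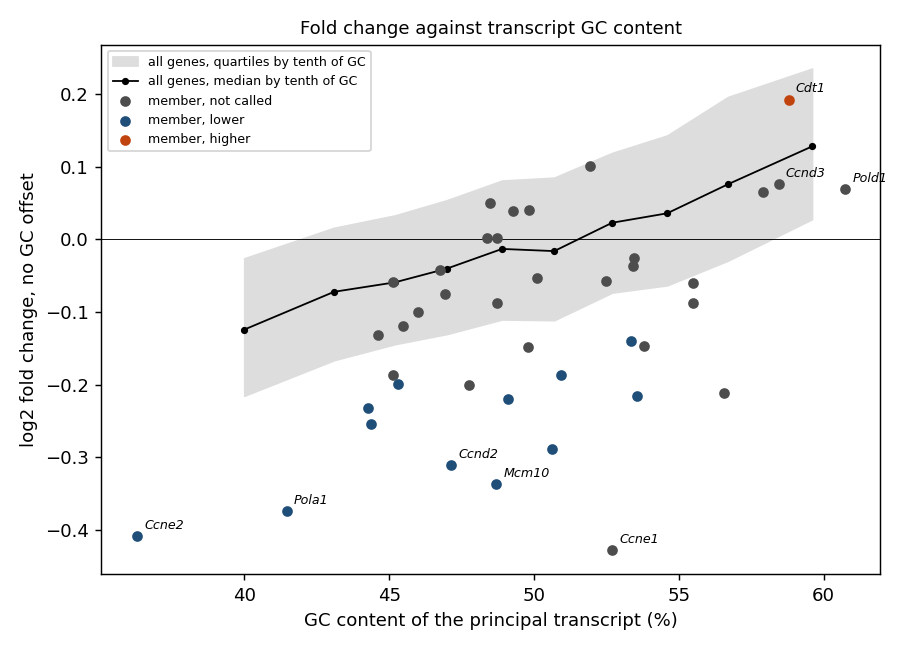
The log2 fold change of each of the 41 genes is plotted against the GC content of its principal transcript in percent. The line and grey band give the median and quartiles of all genes in 10 bins of GC, and the median climbs from -0.12 to 0.13; Ccne2, at 36.3% GC, and Cdt1, at 58.8%, sit near the ends.

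None of the 5 E2F genes was called, where 16.8% of all genes tested were. E2f1, E2f2 and E2f3 encode activators and E2f7 and E2f8 repressors that dampen the S phase program. The gene with the smallest p was E2f3, at 33.5 and 34.6 CPM in control and 31.4 and 32.6 CPM in conditioned medium. Its groups lay apart by less than the step between replicates, and the fitted log2 difference was -0.09 ± 0.07 (SE, from edgeR, with an adjusted p of 0.468). E2f1 stood at 24.4 and 27.3 CPM against 26.2 and 27.8 CPM, and its groups overlapped. E2f7 stood at 60.1 and 57.4 CPM against 60.5 and 60.4 CPM, and E2f8, the most abundant of the family in CPM, at 94.7 and 99.4 CPM against 97.2 and 90.3 CPM. E2f2 was the lowest of all 41 genes, with 48 and 32 control counts and 33 and 42 conditioned medium counts.

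Of the 3 D-type cyclin genes, which couple growth signals to the cell cycle, 2 fell, where 8.23% of all genes tested did. Ccnd1 (chromosome 7, 144929931 to 144939831, mm10) stood at 1028 and 976 CPM in control and 872 and 890.0 CPM in conditioned medium. Both control libraries were above both conditioned medium libraries, and the change was -0.19 ± 0.04 on the log2 scale (edgeR adjusted p = 0.00440). Ccnd2 (chromosome 6, 127125162 to 127152188) stood at 193 and 191 CPM against 151 and 158 CPM. That drop was far wider than the spread within either pair, at -0.31 ± 0.05 (edgeR adjusted p = 7.35e-05), and it was called in all 15 alternatives. Ccnd3 stood at 46.7 and 50.6 CPM against 51.1 and 51.4 CPM, with a log2 fold change of 0.08 ± 0.06 that was not called and was -0.04 with the GC offset. Cdk4, the kinase partner of these cyclins (chromosome 10, 127063535 to 127067288), fell from 267.9 and 270.1 CPM to 240.4 and 248 CPM, the smallest fall among those called (-0.14 ± 0.04; edgeR adjusted p = 0.0293). Cdk6, the alternative partner, at 35.4 and 36.9 CPM against 35.7 and 33.8 CPM, overlapped between groups. Without conditioned medium replicate 1 and 2 in turn Ccnd1 was at -0.17 and -0.20 and Cdk4 at -0.12 and -0.16, not called, and DESeq2 and the unfiltered table did not call Cdk4 either.

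Per kilobase of principal transcript, Ccnd1 was the most abundant of the 41 genes in control at 268 CPM per kb. Comparisons between genes on this scale depend on the length chosen. Ccnd2 stood at 30.3 and Ccnd3 at 23.0 CPM per kb, and E2f2 was lowest at 0.574 CPM per kb. In conditioned medium Ccnd2 was at 24.4 and Ccnd3 at 24.2 CPM per kb. Per kilobase of all annotated exons merged, Ccnd2 stood at 20.4 and Ccnd3 at 5.54 in control. In conditioned medium they stood at 16.4 and 5.84 on that length. The E-type cyclins were far less abundant, at 8.91 CPM per kb for Ccne2 and 4.38 CPM per kb for Ccne1 in control. In the MCM hexamer, whose subunits act in equal number, control levels ran from 23.6 CPM per kb for Mcm5 to 114 CPM per kb for Mcm6. Per kilobase of merged exons they ran from 17.1 for Mcm2 to 71.4 for Mcm6.

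**Figure D3:**
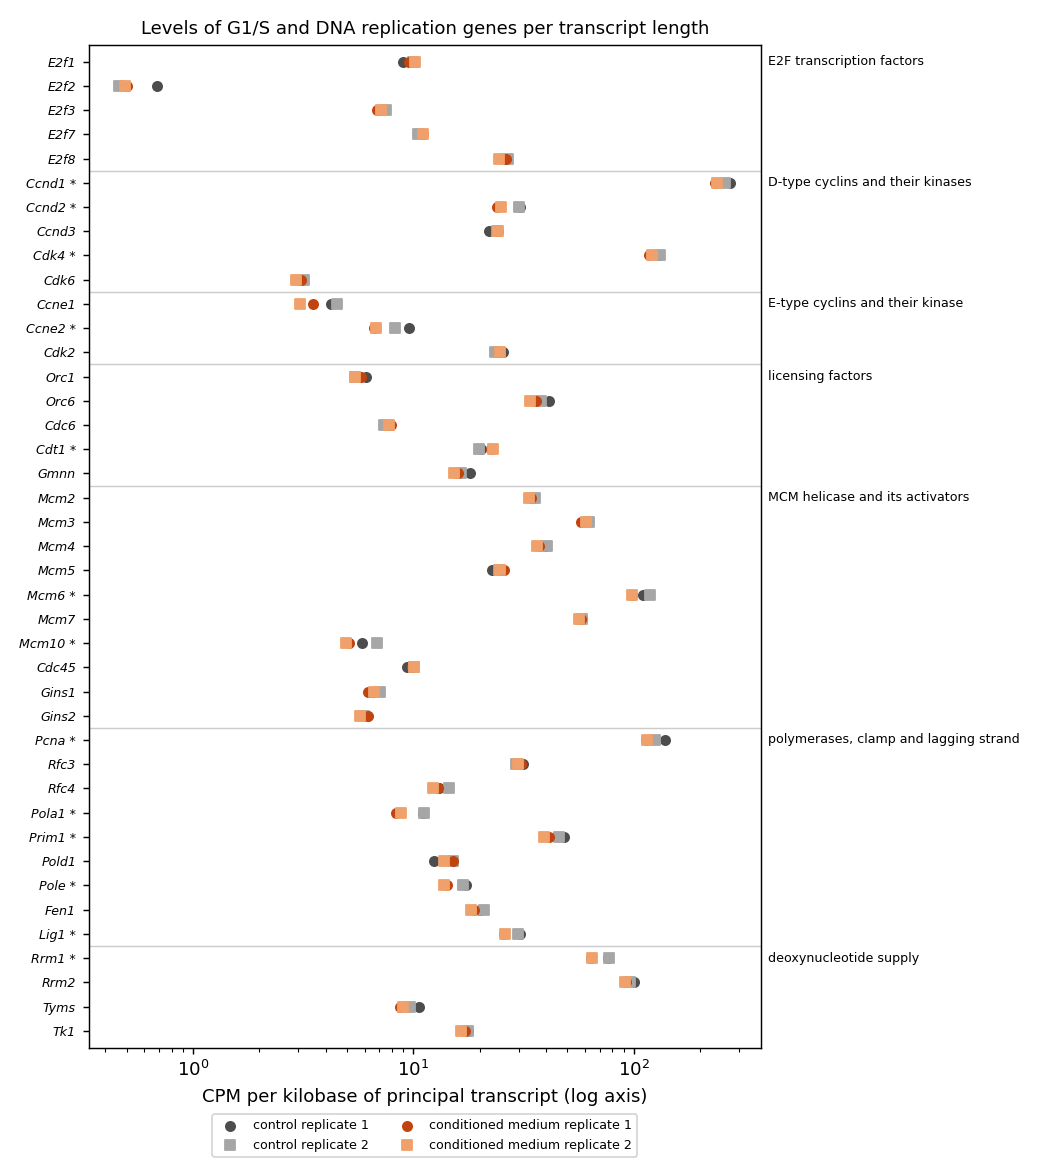
Each row is 1 of the 41 genes and each point 1 library, plotted as CPM per kilobase of principal transcript on a log axis. Ccnd1 lies farthest right, with a control mean of 268 CPM per kb, and E2f2 farthest left, at 0.574.

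Of the E-type cyclins, which activate CDK2 at the entry to S phase, Ccne2 fell. It lies on chromosome 4, 11190433 to 11204779, and stood at 28.6 and 24.9 CPM in control and 20.0 and 20.3 CPM in conditioned medium. The groups did not overlap, and the change was -0.41 ± 0.09 on the log2 scale (edgeR adjusted p = 0.00368). With the GC offset it was -0.24 ± 0.09 and not called (edgeR adjusted p = 0.0712, with 1.11e-05 to 0.0998 over its alternatives), and the 36.3% GC of its transcript was the lowest of the 41. DESeq2 did not call it, nor did the fits without conditioned medium replicate 1 (-0.40) or replicate 2 (-0.42). Ccne1 had a log2 fold change of -0.43 ± 0.15 on 125 and 132 control counts against 97 and 110 and was not called (edgeR adjusted p = 0.0576); it passed with the GC offset at -0.45 (edgeR adjusted p = 0.0405, the lowest of 0.0405 to 0.399 over its alternatives), and also with the robust spread. Cdk2 stood at 57.2 and 52.7 CPM against 54.8 and 55.3 CPM, with a log2 fold change of 0.002 ± 0.06.

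Among the licensing factors, which load the helicase in G1, Cdt1 was the gene called higher. It lies on chromosome 8, 122568015 to 122573130, and stood at 44.2 and 43.4 CPM in control and 49.5 and 50.5 CPM in conditioned medium. The libraries of each group lay close together and apart from the other group, at 0.19 ± 0.06 on the log2 scale (edgeR adjusted p = 0.0406). With the GC offset it was 0.07 ± 0.06 (edgeR adjusted p = 0.509, with 0.0284 to 0.509 over its alternatives). It lost its call in 7 of 15 alternatives, among them DESeq2 and the removal of control replicate 2 (0.18), conditioned medium replicate 1 (0.21) or conditioned medium replicate 2 (0.18). Gmnn, which encodes geminin, the inhibitor of CDT1, stood at 20.4 and 18.5 CPM against 18.0 and 17.2 CPM and was not called (-0.15 ± 0.10). Orc6, a subunit of the origin recognition complex, had the smallest p of those not called here. It stood at 53.2 and 48.6 CPM against 46.2 and 43.4 CPM (-0.19 ± 0.07; edgeR adjusted p = 0.0628). Without control replicate 2, the fit with the most calls of all settings run, it was at -0.25 and called. Orc1 and Cdc6, which join it at origins, had overlapping groups and log2 fold changes of -0.04 and 0.05.

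In the MCM2-7 helicase 1 of 6 subunit genes fell, where 8.23% of all genes tested did. Mcm6 (chromosome 1, 128331575 to 128359705) stood at 320.2 and 346 CPM in control and 285 and 287 CPM in conditioned medium. Both conditioned medium libraries lay below both controls, at -0.22 ± 0.05 (edgeR adjusted p = 0.00206), and at -0.21 with the GC offset. The other 5 subunit genes were not called. Their log2 fold changes were -0.12 for Mcm4, -0.06 for Mcm2, -0.06 for Mcm3, -0.04 for Mcm7 and 0.10 for Mcm5. Mcm10, which helps activate the loaded helicase (chromosome 2, 4990724 to 5012791), fell from 28.4 and 33.1 CPM to 24.8 and 23.9 CPM, by 0.34 ± 0.09 on the log2 scale (edgeR adjusted p = 0.0104). Its controls differed from each other by more than its conditioned medium libraries did, and without control replicate 2 it was at -0.22 and not called. Cdc45, Gins1 and Gins2, partners of the active helicase, were not called and overlapped between groups, at 0.04, -0.07 and -0.02. Mcm6 was at -0.21 and -0.22 and Mcm10 at -0.36 and -0.31 without conditioned medium replicate 1 and 2 in turn, not called, and DESeq2 did not call Mcm10 either.

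At the fork 5 of 9 genes fell, where 8.23% of all genes tested did. Pola1, the catalytic subunit of the polymerase that starts each strand (chromosome X, 93304766 to 93632387), stood at 59.0 and 59.9 CPM in control and 44.5 and 47.0 CPM in conditioned medium. It fell by 0.37 ± 0.06 on the log2 scale (edgeR adjusted p = 2.06e-04), by 0.28 with the GC offset, and was called in all 15 alternatives. Prim1, the primase subunit that lays the RNA primer beside it (chromosome 10, 128015215 to 128030030), went from 76.1 and 72.9 CPM to 65.1 and 62.0 CPM (-0.23 ± 0.06; edgeR adjusted p = 0.00702). Pole, the leading-strand polymerase (chromosome 5, 110286319 to 110337468), went from 124 and 120.2 CPM to 102 and 98.5 CPM, a change of -0.29 ± 0.05 on the log2 scale (edgeR adjusted p = 3.39e-04). All 3 showed conditioned medium libraries well below the controls. Pold1, the lagging-strand polymerase, stood at 42.9 and 52.2 CPM against 52.5 and 47.7 CPM. Its control libraries bracketed a conditioned medium library, and its log2 fold change of 0.07 was -0.08 with the GC offset and -0.07 without control replicate 1. Without control replicate 2, the fit with the most calls of all settings run, Pold1 was at 0.21 and called. Pole was at -0.27 and Prim1 at -0.20 without conditioned medium replicate 2, neither of them called, and Prim1 was at -0.26 and not called without replicate 1 of that group, nor was it called by DESeq2.

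Pcna, the clamp that tethers polymerases (chromosome 2, 132249286 to 132253180), stood at 209.6 and 189.8 CPM in control and 173 and 175 CPM in conditioned medium. The groups did not overlap, with the wider gap within the control pair, and the change was -0.20 ± 0.05 on the log2 scale (edgeR adjusted p = 0.00797). Lig1, which seals Okazaki fragments (chromosome 7, 13277175 to 13311426), fell from 96.4 and 94.4 CPM to 82.0 and 82.3 CPM, at -0.22 ± 0.05 (edgeR adjusted p = 0.00562). Fen1, which trims the flaps before ligation, was at 47.5 and 49.6 CPM against 44.5 and 43.3 CPM and was not called, but passed with the GC offset at -0.18. The clamp loader genes Rfc3 and Rfc4 were not called, at 0.002 and -0.13. Pcna was at -0.19 and -0.21 and Lig1 at -0.21 and -0.22 without conditioned medium replicate 1 and 2 in turn, not called, and DESeq2 called neither. Annotated pseudogenes Pcna-ps1, Pcna-ps2, Ccnd3-ps and Tyms-ps could share reads with their parent genes, and 19 of the 41 genes, 6 of those called among them, have exons that overlap another gene, and their reads are less certain because the library kit does not record strand. The 6 are Ccnd1, Ccnd2, Cdk4, Ccne2, Lig1 and Pole.

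All 4 genes of deoxynucleotide supply had lower levels in both conditioned medium libraries than in both controls, and 1 of them was called; 28.8% of all genes tested lay apart and lower in the same way. Rrm1, the large subunit of ribonucleotide reductase (chromosome 7, 102441695 to 102469771), stood at 307 and 307 CPM in control and 255 and 259 CPM in conditioned medium. The controls were nearly equal and the change was -0.25 ± 0.04 (edgeR adjusted p = 2.61e-04), -0.20 with the GC offset, and called in all 15 alternatives. Rrm2, the small subunit whose level follows S phase, was at 219.6 and 211 CPM against 202 and 200.2 CPM and was not called (-0.10 ± 0.04). Tyms, which makes thymidylate, was at -0.20 ± 0.08 and Tk1, the thymidine salvage kinase, at -0.09 ± 0.08. Without control replicate 2, the fit with the most calls of all settings run, Rrm2 was at -0.13 and Tyms at -0.27, both called.

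**Figure D4:**
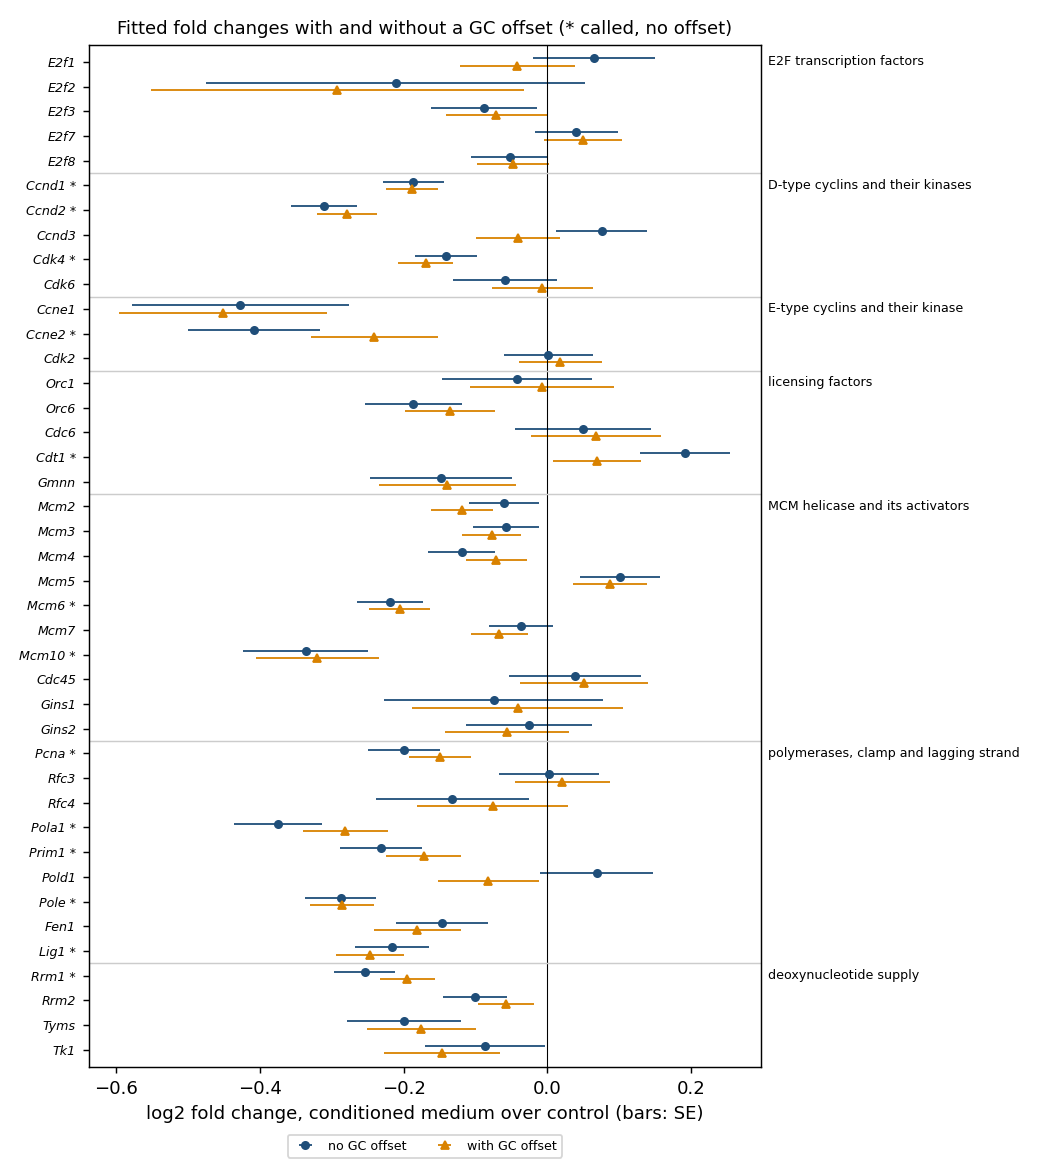
Each row is 1 of the 41 genes; circles give the fitted log2 fold change and triangles the same with the GC offset, with bars of 1 SE, and an asterisk marks the 13 genes called without the offset. Ccnd2, Pola1, Pole and Rrm1 stay left of 0 both ways, while Cdt1 moves from 0.19 to 0.07 and Ccne2 from -0.41 to -0.24.

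Partner genes were compared within each library as ratios of CPM per kb of principal transcript, 7 ratios in all, picked after their values were seen. The level of each ratio depends on the length chosen. The ratio of Ccnd2 to Ccnd3 was 1.38 and 1.26 in control and 0.988 and 1.03 in conditioned medium. That of Cdt1 to its inhibitor Gmnn was 1.12 and 1.21 against 1.42 and 1.52. Both differed between groups by more than between replicates, by log2 differences of -0.39 and 0.34, which were -0.24 and 0.21 with the GC offset. The ratio of Pole to Pold1 was 1.39 and 1.11 against 0.933 and 0.996, a log2 difference of -0.37 that was -0.20 with the GC offset. The ratio of Ccnd1 to Ccnd3 was 12.5 and 10.9 against 9.64 and 9.79, a log2 difference of -0.26 that was -0.15 with the GC offset, and that of Rrm1 to Rrm2 was 0.766 and 0.799 against 0.696 and 0.711. Mcm6 stood at 2.54 and 2.68 times the mean of the other MCM2-7 genes in control and at 2.30 and 2.33 times in conditioned medium. The ratio of Ccne2 to Ccne1 overlapped between groups, at 2.25 and 1.83 against 1.90 and 2.22, a log2 difference of 0.01 that was 0.21 with the GC offset. In 6 of the 7 the groups lay apart, for which the two-sided exact permutation p was 0.333, the smallest that 2 libraries against 2 allow, and 0.389 after Benjamini-Hochberg adjustment. Among single genes tested 57.2% lay apart. Because the ratios were picked from seen values, neither the count nor these p-values can serve as a test.

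**Figure D5:**
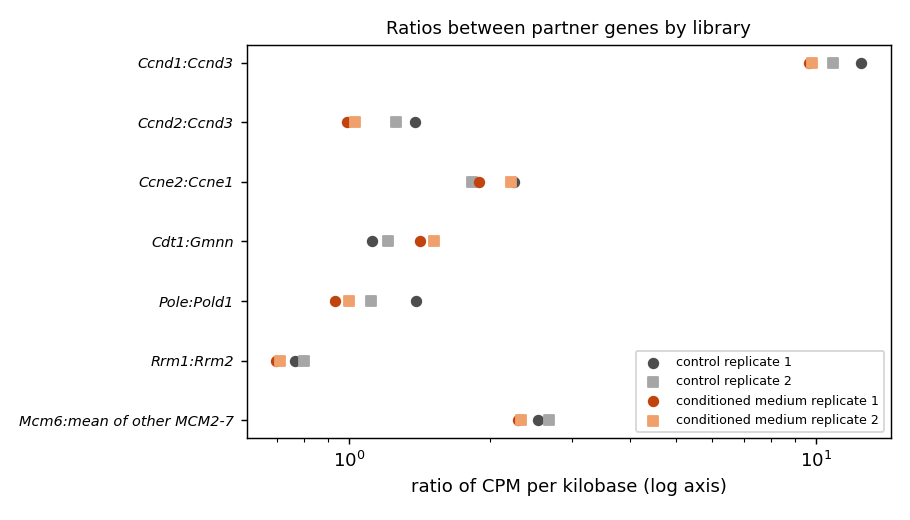
Each row is a ratio between partner genes in CPM per kilobase, on a log axis, and each point 1 library. The groups lie apart in 6 of the 7 ratios and overlap in Ccne2 to Ccne1.

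Other genes of the pathway, taken from a list of 89 with defined roles, gave 16 falls and 3 rises, 21.3% called against 16.8% of all genes tested, with a median log2 fold change of -0.09. Without conditioned medium replicate 1 the calls numbered 5, which is 5.62% against 5.71% of all genes, and without replicate 2 they numbered 4, 4.49% against 4.03%. DESeq2 called 6, 6.74% against 7.48% of the genes it gave an adjusted p. In these 3 settings the share called in either direction was near that of all genes given an adjusted p, but every call was a fall. DESeq2 called 3.62% of the genes it gave an adjusted p lower, and the lower shares without each conditioned medium library are given above. With the GC offset 16 fell and 1 rose, 19.1% called against 16.1%, and 14 of the falls were called both ways. Among the brakes on E2F, Rbl1, which encodes p107, fell from 83.9 and 88.0 CPM to 68.1 and 66.9 CPM (-0.35 ± 0.05; edgeR adjusted p = 1.21e-04), and Rb1, the retinoblastoma gene, fell by 0.23 ± 0.06 but was at -0.13 and not called with the GC offset. Rb1 was not called by DESeq2, nor without conditioned medium replicate 1 (-0.23) or 2 (-0.22). CDK inhibitors went both ways. Cdkn2b and Cdkn2c, inhibitors of CDK4 and CDK6, fell by 0.25 and 0.21, and Cdkn1a, encoding p21, rose from 184 and 179 CPM to 191 and 211 CPM (0.15 ± 0.05; edgeR adjusted p = 0.0452), while Cdkn1b and Cdkn2a were not called, at -0.11 and -0.01. Cdkn1a was not called without conditioned medium replicate 1 (0.22) or 2 (0.07), with the GC offset (0.11), in the unfiltered table or in DESeq2. Cdkn2b and Cdkn2c were not called in DESeq2 or the unfiltered table, with upper-quartile or library-total scaling, or without conditioned medium replicate 1 (-0.23 and -0.22) or 2 (-0.27 and -0.20). Cdkn2b was at -0.21 and not called without control replicate 2, and Cdkn2c at -0.14 and not called without control replicate 1. None of the 5 other E2F and DP factor genes was called.

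Ccna2, the cyclin of S phase and G2, fell from 158 and 145 CPM to 124 and 119.9 CPM (-0.31 ± 0.05; edgeR adjusted p = 2.26e-04), and Fbxo5, an inhibitor of cyclin degradation, fell by 0.29 ± 0.08. Myc, a growth-driving transcription factor, stood at 51.3 and 53.6 CPM against 51.1 and 52.3 CPM and was not called. Of the nucleotide genes, Shmt1, which supplies folate carbon for thymidylate, had the largest fall of the list, from 15.9 and 18.3 CPM to 10.8 and 9.98 CPM, a change of -0.73 ± 0.12 on the log2 scale (edgeR adjusted p = 1.93e-04) that was called in all 15 alternatives. Samhd1, which degrades deoxynucleotides, fell by 0.22 ± 0.06. Chek1, the replication checkpoint kinase, fell by 0.39 ± 0.10, while Timeless, a fork protection gene, rose by 0.23 ± 0.07 and lost that call with the GC offset (0.18) and without control replicate 1 (0.13). Without conditioned medium replicate 1 and 2 in turn Fbxo5 was at -0.28 and -0.30, Samhd1 at -0.24 and -0.19, Chek1 at -0.42 and -0.36 and Timeless at 0.29 and 0.15, none of them called, and DESeq2 called none of these 4. Ccna2 was at -0.28 and not called without conditioned medium replicate 2, and Samhd1 at -0.15 and not called without control replicate 2.

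Pold4, the small accessory subunit of the lagging-strand polymerase, rose from 18.4 and 18.4 CPM to 25.1 and 23.8 CPM (0.41 ± 0.09; edgeR adjusted p = 0.00327), and was at 0.31 and called with the GC offset. Rfc1, the large clamp loader subunit, fell by 0.20 ± 0.05, Wdhd1, which links helicase and polymerase, by 0.28 ± 0.07, and Orc2 by 0.30 ± 0.09, which was at -0.17 and not called without control replicate 1, and at -0.24 and not called with the GC offset. In chromatin assembly behind the fork, the histone chaperone gene Nasp fell by 0.31 ± 0.06, Slbp, which binds histone mRNA, by 0.25 ± 0.05, and Uhrf1, which passes on DNA methylation, by 0.19 ± 0.06. Nasp was called in all 15 alternatives, as was Rbl1. Without conditioned medium replicate 1 and 2 in turn Pold4 was at 0.38 and 0.45, Rfc1 at -0.22 and -0.18, Wdhd1 at -0.26 and -0.29, Orc2 at -0.24 and -0.36 and Uhrf1 at -0.18 and -0.20, none of them called, and DESeq2 called none of these 5. Slbp was at -0.22 and not called without conditioned medium replicate 2, and Uhrf1 at -0.16 and not called without control replicate 2.

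Of 20 mitosis genes 6 fell and 0 rose, where 8.23% of all genes fell, with a median log2 fold change of -0.12. With the GC offset 6 fell, where 7.39% of all genes did, 4 of them called both ways. Mki67, the proliferation marker, stood at 690.2 and 693 CPM in control and 587 and 587 CPM in conditioned medium (-0.24 ± 0.04; edgeR adjusted p = 3.58e-04). Top2a, a topoisomerase of dividing cells, fell by 0.19 ± 0.04. Cdk1, the mitotic kinase, and Ccnb1, its cyclin, were not called, at -0.04 and -0.12. Mki67 was at -0.24 and -0.24 and Top2a at -0.19 and -0.19 without conditioned medium replicate 1 and 2 in turn, not called, and the calls among the 20 genes numbered 2 and 1, all falls, where 2.44% and 1.74% of all genes fell. Ccnb1 was at -0.17 and called without control replicate 2, the fit with the most calls of all settings run.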

How the data were processed

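Per the labels, libraries came from total RNA by an unstranded TruSeq RNA protocol. The authors deposited raw counts per Entrez gene for 4 libraries; STAR 2.5.2b, featureCounts, Subread 1.4.6-p1 and mm10 are named in the submitters' processing notes, with settings not given in the sources used here. Symbols came from RefSeq (GRCm38.p6), matching 25275 of 27179 rows; rows without a symbol, 1904 in number with 6.31% of all counts, were kept in the fit. The test was run in R 4.3.3 with edgeR 4.0.16: filterByExpr (minimum count 10, total 15), TMM scaling (factors 0.987 to 1.01), and a two-sided quasi-likelihood test without a replicate block, with Benjamini-Hochberg adjustment over 13897 genes and 2 residual degrees of freedom. Each SE is the size of the log2 fold change divided by the root of its F statistic. Transcript length and GC content are those of the longest top-ranked APPRIS transcript in GENCODE M21, with a GC value for 87.4% of tested genes and 41 of the 41. The GC offset was a lowess curve (span 0.3) of each library's log2 ratio on GC. The procedure was also run on simulated counts that had no GC trend. The outcome is not given here, and nothing about falls of the size reported is drawn from it.

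Every member is described; statistics are given in full for called members and for the smallest p where a role had no call; other pathway genes are named up to 3 calls per role, plus a fixed set, of which 1 gene is not reported here. The members and lists were chosen with earlier results of these data known. Counting floors cover counting error only. Alternatives were other scalings (RLE, upper quartile, library totals), a robust spread, no count filter or a filter of 1 CPM in 2 libraries, a replicate block, DESeq2 1.42.0, limma-voom 3.58.1, each library left out in turn (the remaining one is assumed to be as variable as the other group), and, added after the data were seen, the GC offset with and without the block.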

Additional observations from a re-analysis of the deposited data

How the results depend on the processing

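Scaling by RLE, upper quartile or library totals, the 1 CPM filter, the robust spread and limma-voom kept all 13 calls among the 41 genes. The unfiltered table called 0 higher and 11 lower, where 9.83% of all genes were called in either direction, against 16.8% in the main fit. DESeq2 called 0 higher and 6 lower, 918 of the 12280 genes it gave an adjusted p (7.48%) and 6 other pathway genes. With or without the block, the GC offset called 0 higher. Leaving out each library in turn gave 569 to 3107 calls over all genes, 0 to 1 higher and 3 to 14 lower among the 41, 4 to 22 among other pathway genes, 1 to 7 among mitosis genes, and a median of -0.117 to -0.0899. Same-numbered libraries did not deviate together (correlation -0.04), and a replicate block called 15 of the 41, adding Ccne1 and Orc6, and 2671 of all genes (19.2%). With the GC offset and the replicate block 10 were lower, without Pcna, Ccne1 and Fen1, where 13.3% of all genes were called. Direction turned only in genes that were not called: with the GC offset E2f1 (-0.0414), Ccnd3 (-0.0408) and Pold1 (-0.0818), with the block added -0.0449, -0.0415 and -0.0816; with upper-quartile scaling Cdkn2a (0.00516); and over the leave-one-out fits E2f1 (-0.0115 to 0.148), E2f2 (-0.466 to 0.102), E2f8 (-0.103 to 0.00137), Cdk2 (-0.0567 to 0.0624), Orc1 (-0.124 to 0.0431), Cdc45 (-0.0151 to 0.0941), Gins2 (-0.0852 to 0.0431), Rfc3 (-0.0508 to 0.0551), Pold1 (-0.0677 to 0.214, called at its highest), Cdkn2a (-0.0646 to 0.0467), Myc (-0.0502 to 0.0135) and Cdk1 (-0.0979 to 0.0202). The cause of each change was not tested. With 2 libraries a group, differences as large as the falls given were not always called in genes with few counts. Ccne1, at -0.43 ± 0.15, and E2f2, at -0.21 ± 0.26, were not called. Detection by count level was not tested.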
